A study of Rattus norvegicus with 12 samples.

Results

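The cells described here were rat liver cells that carried transcripts of the MHC class II pathway together with Lyz2, S100a4 or Slpi. They held few or no transcripts of 6 Kupffer genes and none of the dendritic cell genes named next, while other dendritic cell genes were not limited. A cell entered the group if it held at least 3 unique molecular identifiers (UMIs) of Lyz2, S100a4 and Slpi summed, at least 10 UMIs of Cd74, no UMI of Xcr1, Clec9a, Clec10a or Siglech, and under 0.3% of its UMIs from the 6 Kupffer genes Cd5l, Clec4f, Vsig4, C1qa, C1qb and C1qc. These limits were met by 86 of 25659 cells that passed the filters on depth and mitochondrial reads. The values of these genes chose the cells, so their levels are given below as a description, without a test.

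Cells came from 6 livers of healthy male rats. Total liver homogenate (TLH) was prepared by collagenase digestion from 2 Dark Agouti (DA) and 2 Lewis (LEW) rats and sequenced with 3′ version 2 chemistry of 10x Genomics, and 1 further liver of each strain was depleted of red cells and washed to enrich immune cells before 3′ version 3 chemistry. No rat received a treatment by the labels, although the deposited names carry the word sham. The names also give 10 weeks of age for both DA TLH rats, 13 weeks for both LEW TLH rats and 9 weeks for the immune-enriched rats. The design text gives 8 to 10 weeks for TLH, and the study's methods give an older age and state that the strains were matched for age. If the names hold, strain and age cannot be told apart in the TLH libraries. The immune-enriched preparation had 1 rat per strain and a different chemistry, so it has no replicate check. The 4 nuclei libraries and the 2 Visium sections of the series were not used here. TLH libraries held 61441846 to 92484173 UMIs, and the immune-enriched libraries 48255870 and 60005133. Where a group of cells has fewer transcripts of a gene in a library, fewer cells of a type and less RNA per cell cannot be told apart.

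MHC class II molecules present peptides from the endosome to CD4+ T cells. Each is a pair of an alpha and a beta chain, in the rat RT1-Ba with RT1-Bb and RT1-Da with RT1-Db1, and the invariant chain Cd74 holds the groove closed until proteases have trimmed it away. Constitutive expression of these genes is typical of dendritic cells and B cells and of some monocytes and macrophages, and depends on the coactivator Ciita, which is recruited by factors bound at the X and Y boxes upstream of each gene. Lyz2 encodes lysozyme of monocytes, macrophages and granulocytes, S100a4 a calcium-binding protein of motile cells and blood-derived monocytes, and Slpi a secreted inhibitor of serine proteases that is made by several myeloid and epithelial cells.

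The upstream sequences of the chains that these cells shared are printed because the promoters of this family carry the X and Y boxes. Each line gives the 150 bases before the annotated start, 5′ to 3′ on the gene's strand, from RefSeq on GRCr8, and all 5 genes had an entry. Capitals mark the X box core TAGCAAC and the inverted CCAAT of the Y box, GATTGG, both searched on both strands (reverse complements GTTGCTA and CCAATC).
RT1-Da (chr20:4515265-4515414, plus strand): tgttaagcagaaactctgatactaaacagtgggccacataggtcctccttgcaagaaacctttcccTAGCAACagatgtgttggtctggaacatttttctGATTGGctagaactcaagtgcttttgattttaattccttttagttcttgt
RT1-Db1 (chr20:4560163-4560312, minus strand): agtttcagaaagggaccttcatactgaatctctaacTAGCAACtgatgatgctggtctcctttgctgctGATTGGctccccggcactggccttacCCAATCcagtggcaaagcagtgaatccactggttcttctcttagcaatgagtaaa
RT1-Ba (chr20:4576907-4577056, plus strand): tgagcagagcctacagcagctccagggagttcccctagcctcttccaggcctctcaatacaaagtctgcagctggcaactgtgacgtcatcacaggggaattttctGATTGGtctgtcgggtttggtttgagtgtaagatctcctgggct
RT1-Bb (chr20:4604119-4604268, minus strand): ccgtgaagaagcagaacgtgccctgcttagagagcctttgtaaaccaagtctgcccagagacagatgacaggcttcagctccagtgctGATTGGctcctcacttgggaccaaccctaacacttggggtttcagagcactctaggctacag
Cd74 (chr18:56527056-56527205, plus strand): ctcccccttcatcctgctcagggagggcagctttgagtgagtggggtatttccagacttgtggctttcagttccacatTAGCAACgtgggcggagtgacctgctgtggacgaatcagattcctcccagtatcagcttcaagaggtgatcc
In RT1-Da the X core started 84 bases before the gene's start and the Y box 50 bases before it, with 27 bases between them. RT1-Db1 had the same order, at 114 and 81 bases, with 26 bases between, and a further match of the Y box on the other strand. RT1-Ba and RT1-Bb held the exact Y box alone, 44 and 62 bases before the start, and Cd74 the exact X core alone, 72 bases before it. Over 33469 promoter windows of this length, 1.84% held the X core, 9.35% the Y box, and 0.0359% (12 windows) the X core ahead of the Y box on the gene's strand. These letters describe the reference genome, whose strain is neither DA nor LEW, and a match is not a measured binding site.

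The members were rare in every library. The DA TLH rats gave 15 of 2351 and 33 of 10167 kept cells (0.638% and 0.325%), the LEW TLH rats 13 of 5457 and 12 of 3844 (0.238% and 0.312%), and the immune-enriched livers 6 of 1163 for DA (0.516%) and 7 of 2677 for LEW (0.261%). Both DA TLH shares lay above both LEW shares, by 0.206 percentage points between the means, yet the exact two-sided permutation test on 2 and 2 rats gave p = 0.333, the smallest value it can reach. Exact binomial limits at 95% (counting error alone) overlapped between both DA rats (0.358 to 1.05% and 0.224 to 0.456%) and both LEW rats (0.127 to 0.407% and 0.161 to 0.545%). Median depth was 2327, 3054, 3092 and 2778.5 UMIs per member in the 4 TLH libraries and 6522 and 7891 in the immune-enriched libraries.

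**Figure D1:**
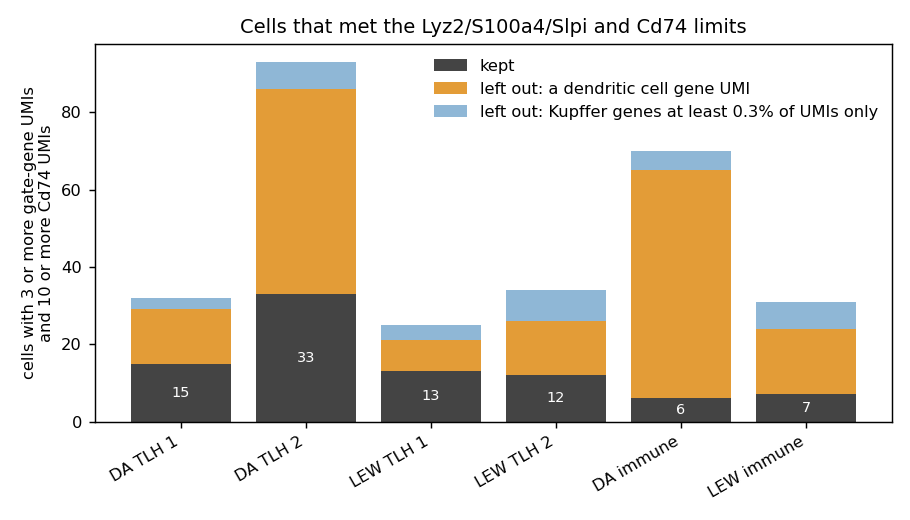
Stacked bars give, for each of the 6 libraries, the number of cells that met the limits on Lyz2, S100a4 and Slpi summed and on Cd74, split into those kept (dark, with their number), those left out for a dendritic cell gene and those left out for Kupffer genes alone. In each library except LEW TLH 1 the cells left out for a dendritic cell gene were within 1 of, or more numerous than, the cells kept.

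The limits on other cell types decided most of the membership. Of 285 cells that met the Lyz2, S100a4 and Slpi limit and the Cd74 limit, 165 were left out for at least 1 UMI of a dendritic cell gene, 70 for Kupffer genes, and 36 of these for both. A single UMI was the only reason for 42 of them. Near the limits, 6 members held 10 or 11 UMIs of Cd74 and 5 cells were left out at 8 or 9. Similarly, 4 members held exactly 3 UMIs of the gate genes against 12 cells left out at 2, and 9 members had 0.1 to 0.3% of Kupffer genes against 3 cells left out at 0.3 to 0.5%. No Kupffer gene of the rule was detected in 47 members.

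The label under which these cells were chosen, monocytes and macrophages high in MHC class II, was only partly borne out by markers that the rule did not use. After thinning each cell to 1000 UMIs, Plac8, a gene of monocytes and granulocytes, was seen in 68.5% of TLH members (3.86% of hepatocyte-rich cells, which should lack it), and Tyrobp, the adaptor of activating myeloid receptors, in 76.7% (6.94%). The receptor for colony stimulating factor Csf1r was seen in 15.1% (1.79%; unthinned 32.9% and 4.30%), and the lysosomal glycoprotein Cd68 in 19.2% (1.65%; unthinned 36.99% and 3.87%). RT1-Db1, which moves with the Cd74 of the rule and so is no independent check of the label, was seen in 91.8% (3.004%; unthinned 97.3% and 6.52%). The median depth was 2881 UMIs in TLH members and 2410 in hepatocyte-rich cells. Plac8 and Tyrobp were also present in the dendritic class defined below, so their contrast with hepatocyte-rich cells does not tell monocytes from dendritic cells. In DA TLH 1 and 2 and LEW TLH 1 and 2, Plac8 was at 10.7, 10.7, 19.5 and 9.61 UMIs per 10000 in that class. Members had 17.4, 14.4, 40.03 and 38.5. Tyrobp was at 10.7, 15.2, 23.5 and 18.5 in that class and at 15.5, 15.4, 30.2 and 36.5 in members.

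Several markers of classical monocytes and of other leukocytes were at or close to 0 in TLH members. S100a8, S100a9, Vcan and F13a1 had no UMI in the 4 TLH libraries. Of the same list, Cd14 was at 0.27, 0.09, 0.23 and 1.43 UMIs per 10000 and Ccr1 at 0, 0.09, 0.46 and 0.86. The whole classical monocyte list of 10 genes stood at 6.80, 6.72, 5.26 and 11.99 UMIs per 10000, mostly from fibronectin, Fn1 (6.53, 6.54, 4.35 and 9.42), which hepatocytes also make and which was at 8.23, 9.88, 7.26 and 6.48 in all other kept cells. Cx3cr1, the fractalkine receptor of patrolling monocytes, had 0 UMIs per 10000 in both DA rats and 0.23 and 0.29 in the LEW rats. The T cell gene Cd3e, the B cell gene Cd79b and the cytotoxic granule gene Nkg7 had a UMI in 0 of 73 TLH members, which allows a share of cells with a UMI of up to 4.11% (3 counts) at this depth. Their whole lists were not all at 0. The B cell list stood at 1.09, 0.56, 1.14 and 1.14 UMIs per 10000, beside 2.34, 0.42, 0.64 and 2.05 in all other kept cells. The NK list stood at 0, 1.40, 0 and 0 and the T cell list at 0, 0.19, 0 and 0. In the immune-enriched DA and LEW members the B cell list was at 1.45 and 3.93, and all 29 such UMIs of the LEW liver came from 2 of its 7 members. Hepatocyte transcripts (14 genes) made up 793, 1010, 705 and 723 of 10000 UMIs in TLH members, against 1235 to 1444 in all other kept cells, and 14.996 and 109 in the immune-enriched members. They also made up 721, 915, 634 and 724 in the Kupffer class, so the members carried liver RNA at a level close to that of another immune class. Given these values, and those of Slpi below, the cells are called MHC II-high Lyz2/Slpi cells, or members, and no cell type name is given.

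**Figure D2:**
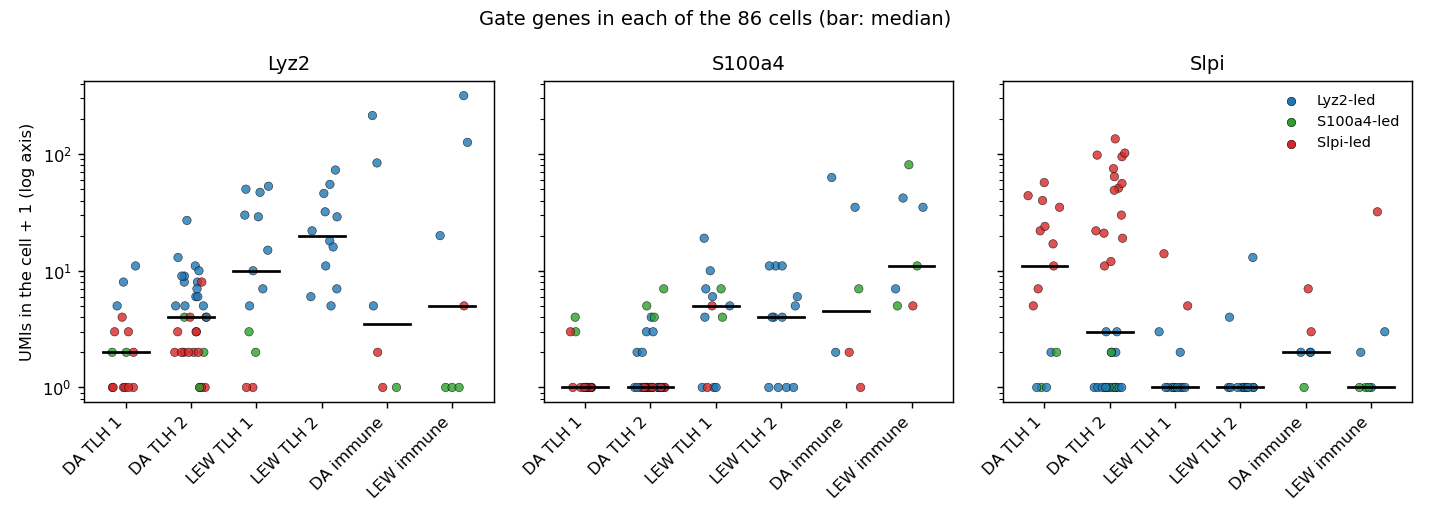
Each point is 1 of the 86 cells, placed by library and by its UMIs of the gate gene plus 1 on a log axis, and coloured by which of Lyz2, S100a4 and Slpi had the most UMIs in that cell; bars mark medians. Cells led by Slpi lie mainly in the 2 DA TLH libraries and reach 134 UMIs, and cells led by Lyz2 reach 316.

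Lyz2, S100a4 and Slpi, which entered the rule as a sum, were seldom high in the same cell. Lyz2 had the most UMIs of the 3 genes in 45 members, S100a4 in 11 and Slpi in 30. Only 11 members carried all 3 transcripts, 17 had no Lyz2, and of 26 members with at least 10 UMIs of Slpi, 6 had at least 3 of Lyz2. Cells led by Slpi were 10 of 15 and 15 of 33 members in the DA TLH rats, 2 of 13 and 0 of 12 in the LEW TLH rats, and 2 of 6 and 1 of 7 in the immune-enriched DA and LEW livers. Summed over members, Slpi was at 69.1 and 77.7 UMIs per 10000 in the DA rats and at 4.57 and 4.28 in the LEW rats, Lyz2 at 8.43 and 13.7 against 54.9 and 87.9, and S100a4 at 1.90 and 2.05 against 13.3 and 13.7. For each of the 3 genes the strains did not overlap, as for 56.7% of the genes tested between strains. The rule took any 1 of these genes, so a low level of 1 had to be met by another.

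Cells led by Slpi are described next in the DA TLH rats, which held 25 of the 30, by genes that the rule did not use and that lay in the same direction in both rats. Cst3, the cysteine protease inhibitor cystatin C that is abundant in dendritic cells, was at 73.5 and 93.3 UMIs per 10000 in Slpi-led members and at 19.1 and 10.8 in the others, 3.85 and 8.65 times higher. Irf8, a transcription factor of dendritic cell and monocyte development, was at 5.37 and 5.04 in the former and at 0 (0 UMIs) and 0.70 (4 UMIs) in the latter. The actin-binding peptide gene Tmsb10 was 2.44 and 1.96 times higher, and the calcium-binding S100a11 1.51 and 2.22 times. In the first DA rat the 95% Poisson intervals of S100a11 and, narrowly, of Irf8 overlapped. In the few Slpi-led cells of other livers the direction was not always the same: Irf8 was at 0 in those of LEW TLH 1 against 0.78 in the other members and at 2.85 against 3.17 in the immune-enriched DA liver, where S100a11 stood at 2.85 against 8.99. These values rest on 0, 1 and 1 UMI in 2 Slpi-led cells of each liver. Cst3 kept its direction in LEW TLH 1 and the immune-enriched DA and LEW livers, at 92.2, 248 and 24.8 against 23.8, 19.8 and 4.77. Tmsb10 did so too, at 88.5, 148 and 151 against 52.0, 125 and 59.0.

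Fcer1g, Cebpb and Csf1r, chosen after their values were seen, lay lower in Slpi-led members. Fcer1g, the common gamma chain of Fc receptors, was at 2.48 and 1.61 UMIs per 10000 in Slpi-led members and at 12.7 and 11.8 in the others, a level 5.14 and 7.34 times higher. Cebpb, a transcription factor of monocytes and granulocytes, was 3.03 and 2.32 times higher in members not led by Slpi, with intervals that overlapped in rat 1 and, narrowly, in rat 2. Csf1r had 0 and 2 UMIs in Slpi-led members and 2 and 10 in the others. The MHC class II chains did not separate Slpi-led and other members in one direction: RT1-Db1 was at 26.4 and 48.8 in Slpi-led and at 38.99 and 39.7 in other members. Tyrobp was likewise higher in Slpi-led cells of rat 1 (18.6 against 9.55) and lower in those of rat 2 (9.67 against 20.4). These contrasts compare cells chosen by their own counts within 2 livers and carry no test.

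**Figure D3:**
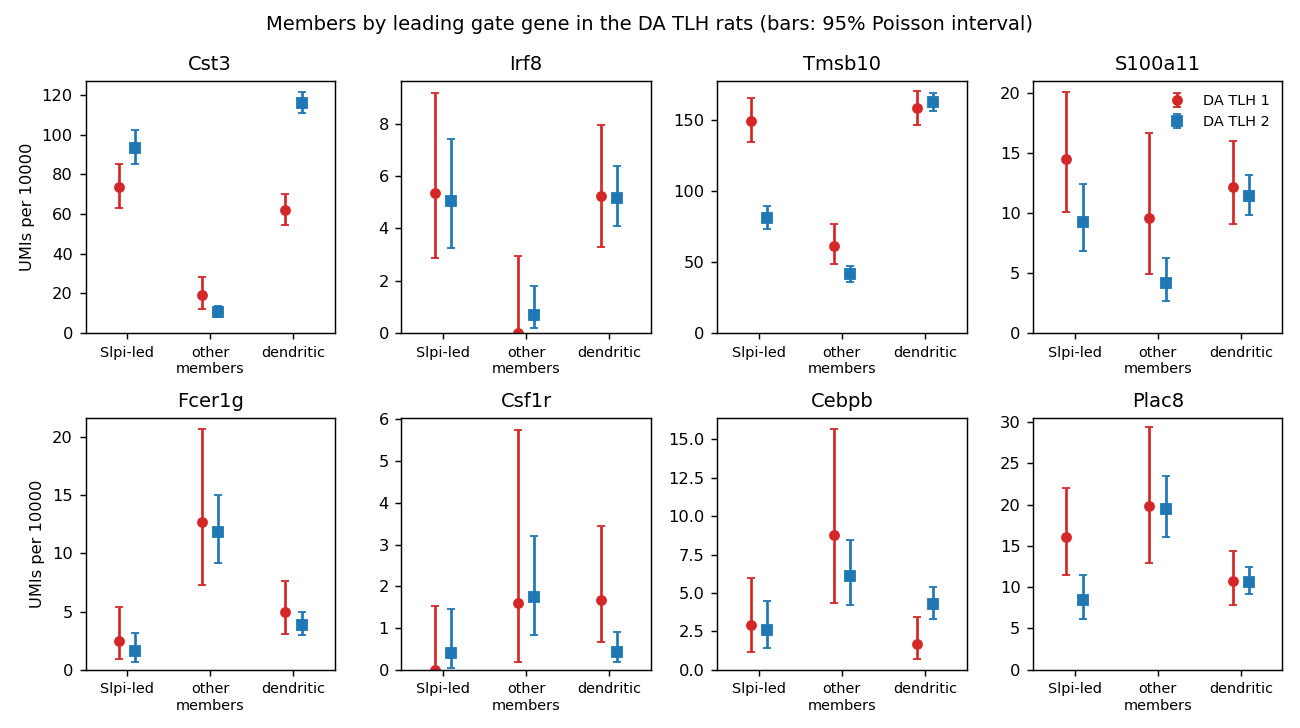
Points give UMIs per 10000 of 8 genes in Slpi-led members, other members and the dendritic class of DA TLH rat 1 (circles) and rat 2 (squares), with 95% Poisson intervals. Cst3, Irf8 and Tmsb10 lie higher in Slpi-led than in other members in both rats, and Fcer1g and Cebpb lower.

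Slpi was not particular to the members. In the dendritic class, cells with at least 1 UMI of Xcr1, Clec9a or Clec10a, none of Siglech, the same Cd74 limit and the same limit on Kupffer genes, Slpi stood at 81.5, 142, 75.1 and 43.4 UMIs per 10000 in the TLH libraries and at 141 and 144 in the immune-enriched livers. At least 3 UMIs of Slpi were found in 9 of 16, 34 of 44, 2 of 7 and 8 of 12 cells of that class in DA TLH 1 and 2 and LEW TLH 1 and 2, and in 10 of 15, 15 of 33, 2 of 13 and 2 of 12 members. Of the Lyz2 cells low in Cd74 defined below, 0 of 4, 0 of 8, 1 of 26 and 2 of 13 held as many, and in the immune-enriched livers 11 of 56 and 7 of 55, beside 1 of 6 and 1 of 7 members. In the Kupffer class they were 0.671 to 0.990% of cells in the TLH libraries. Cst3 in the dendritic class of the DA rats was at 62.0 and 116, beside 73.5 and 93.3 in Slpi-led members, and Irf8 at 5.24 and 5.15, beside 5.37 and 5.04. In TLH, 44 of the 79 dendritic class cells held exactly 1 UMI of the genes that kept a cell out of the members, and the classes had similar depths, with medians of 3314 and 2881 UMIs. Whether members without such a UMI would have shown one at greater depth was not tested.

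Summed over the members, the MHC class II genes were high in every library, but not in every cell. RT1-Db1 ranged from 0 to 177 UMIs per member in the immune-enriched DA liver and from 1 to 100 in the LEW one. The whole list, with Cd74, was at 340 and 156 UMIs per 10000 in these DA and LEW members. It was at 152 and 28.8 in the Kupffer class of these livers and at 809 and 699 in the dendritic class. RT1-Da was at 30.7, 41.1, 55.6 and 58.0 UMIs per 10000 in the members of DA TLH 1 and 2 and LEW TLH 1 and 2, and at 80.8 and 28.5 in the DA and LEW immune-enriched members. RT1-Db1 was at 30.7, 43.9, 55.1 and 48.0, then 70.1 and 30.6, RT1-Ba at 20.4, 29.8, 34.1 and 32.8, then 37.2 and 18.4, and RT1-Bb at 23.1, 36.3, 35.9 and 45.1, then 39.2 and 16.7. In TLH the LEW rats lay above both DA rats for RT1-Da, RT1-Db1 and RT1-Ba and overlapped them for RT1-Bb. The rats did not overlap for 56.7% of all genes tested. As pooled levels, the immune-enriched pair ran the other way for all 4 chains. For RT1-Db1, 177 of the 290 UMIs of the DA immune-enriched members came from 1 of 6 cells, and the direction without that cell was not tested. None of the 4 passed the test between strains: the log2 difference, LEW minus DA, was 0.51 (SE 0.23, adjusted p = 0.167), 0.31 (0.23, 0.453), 0.25 (0.23, 0.554) and 0.28 (0.25, 0.540), by the edgeR quasi-likelihood test with Benjamini-Hochberg adjustment, n = 2 rats each. RT1 genes differ in sequence between strains and have near copies that can share reads, so these levels are uncertain. Cd74, which the rule used, was at 84.6, 108, 106 and 123, then 111 and 60.03.

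Rarer genes of the pathway were detected in few members. Ciita, the coactivator, was at 0.54, 0.56, 0.91 and 0.29 UMIs per 10000 in TLH and at 0.24 and 0.27 in the immune-enriched members. RT1-DOa, the alpha chain of the modulator of peptide loading, was at 0.54, 0.65, 0.46 and 0.86 in TLH. Of the costimulatory genes, Cd48 was at 1.36, 2.15, 2.745 and 1.43 in TLH and at 7.50 and 8.67 in the immune-enriched members, beside 1.499, 1.60, 1.77 and 1.76, then 4.01 and 3.12, in the Kupffer class. The others were low: Cd80 had no UMI in any library, Cd86 reached 0.29 in TLH and 0.48 in the immune-enriched DA liver, and Ccr7, the receptor of migrating dendritic cells, had no UMI in TLH. Ifi30, the lysosomal thiol reductase, was at 2.99, 5.32, 7.32 and 12.3, and the protease Ctsb at 2.72, 2.80, 2.97 and 3.71. Of the cytokines, Il1b was at 0, 1.12, 1.83 and 3.14 in TLH and Tnf and Il10 had no UMI in any library. Genes with no UMI were below the depth of these sums, 222621 UMIs over the 73 TLH members.

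The strain comparison asked how members of LEW livers differed from those of DA livers, a contrast the study drew for liver myeloid cells. UMIs were summed over the members of each TLH rat and compared with the edgeR quasi-likelihood test and Benjamini-Hochberg adjustment, 2 rats against 2. Of 556 genes tested, 37 passed an adjusted p of 0.05 (6.65%), 17 higher in LEW (3.06%) and 20 lower (3.6%). These counts include Lyz2, S100a4 and Slpi, whose values chose the cells, and outside the rule 34 genes passed, 15 higher and 19 lower. Without DA rat 1 the count was 95, and without LEW rat 2 it was 23. Values of the strains did not overlap for 315 genes (56.7%). Of the 20 lower genes, 18 were under 2 times, in at least 1 library, the level in all other cells, and 15 were below the other cells in all 4 libraries. The genes of the next paragraph were at least 2 times above other cells of the same library in each TLH rat.

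Among genes outside the rule, Fcnb, Plac8, Tyrobp, Gngt2, Bcl2a1 and Rbm3 were higher in LEW members and met this limit. The strains entered by different gate genes, with 25 of 48 DA and 2 of 25 LEW TLH members led by Slpi. Plac8 was at 16.1 and 8.46 UMIs per 10000 in Slpi-led members of the DA rats and at 19.9 and 19.5 in the others. For all genes of the strain comparison, strain and this mix of cells cannot be told apart by the test. Fcnb, the lectin ficolin B of monocytes and granulocytes, had 1 and 1 UMI in the DA rats and 17 and 19 in the LEW rats, a ratio of 32.9 per UMI (95% counting interval 8.47 to 282), and the fitted log2 difference was 4.69 (SE 0.68, adjusted p = 0.000106). Plac8 was at 17.4 and 14.4 UMIs per 10000 in DA and at 40.03 and 38.5 in LEW, a log2 difference of 1.19 (SE 0.22, adjusted p = 0.0017). Tyrobp was at 15.5 and 15.4 against 30.2 and 36.5, a difference of 0.97 (0.22, 0.0157). No overlap of the rats was a condition for naming the genes of this paragraph, and it held for 56.7% of all genes tested. Gngt2, a G protein gamma subunit, rose by 1.62 (0.40, 0.0184), from 2.72 and 2.33 to 6.63 and 10.3. Bcl2a1, a survival factor of the Bcl2 family, rose by 1.62 (0.47, 0.0416), from 0.54 and 2.05 to 4.80 and 5.996, and the RNA-binding protein gene Rbm3 by 1.73 (0.44, 0.0184), from 1.90 and 1.12 to 5.72 and 4.28. Lyz2 and S100a4 had the same direction and Slpi the opposite, with fitted differences of 2.48, 2.60 and -4.18, which are a description since these genes chose the cells. Of 16 alternative settings, Fcnb and Plac8 missed the threshold in 2 each, Tyrobp in 5, Gngt2 and Rbm3 in 8 each and Bcl2a1 in 10.

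Among genes that passed, Cst3 was the only one outside the rule that was lower in LEW and stood 2 times above other cells in every TLH library. It was at 54.9 and 49.0 UMIs per 10000 in DA and at 32.3 and 14.8 in LEW, a log2 difference of -1.25 (SE 0.28, adjusted p = 0.0178, edgeR). Irf8, which did not meet the rule on other cells, had 13 and 29 UMIs in DA and 3 and 0 in LEW, 7.66 times more per UMI in DA (2.45 to 38.6), with adjusted p = 0.0178. Cst3 missed the threshold in 5 of 16 alternative settings. In both DA TLH rats these genes were higher in Slpi-led than in other members. Without the Slpi-led members, an alternative chosen after seeing the data, 14 genes passed in place of 37 and Cst3 turned to 0.43 (adjusted p = 0.470). This alternative takes out 25 of 48 DA and 2 of 25 LEW members by the counts of a gate gene, so it restates where Cst3 was high and is no separate evidence.

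By list, the differences between strains were few, beside 6.65% of all genes tested. Of the secretory and cytoskeletal genes of monocytes, 13 outside the rule were tested, 3 rose in LEW (S100a6, Lgals3 and Plac8) and none fell, with a median log2 difference of 0.62 beside -0.02 over all genes. S100a6 was at 0.27 and 1.68 UMIs per 10000 in DA and at 8.46 and 4.57 in LEW, and Lgals3, the galactose-binding lectin galectin 3, at 0 and 0.56 against 2.52 and 4.00. S100a6, Lgals3, and of the genes below Aif1, RT1-A1, Cd68, Ifi27 and Apoc1, were under 2 times the level of other cells in at least 1 TLH library. Of 7 genes of antigen processing Cst3 alone passed, of 3 general macrophage genes 1 rose (Aif1, an actin-bundling protein, at 4.08 and 4.58 against 10.5 and 13.4), and of 4 MHC class I genes 1 rose. That gene, RT1-A1, was at 1.63 and 2.24 in DA and at 10.1 and 4.00 in LEW (1.67, SE 0.47, adjusted p = 0.0384), and as a polymorphic class I gene with near copies its level is uncertain. It missed the threshold in 10 of 16 alternative settings. A list of 10 genes was taken from those that the study names with its myeloid strain difference, as strain genes or as markers of the cells concerned. Others that it names, such as Ly6al, Siglec5 and Ccl3, were not in the list. Of the 10 genes, 8 were too low in the members to be tested. The other one beside RT1-A1, the general myeloid marker Cd68, was at 1.09 and 1.03 in DA and at 3.20 and 3.14 in LEW and did not pass (1.44, SE 0.49, adjusted p = 0.0756). Since the list was drawn from these samples, it is not independent evidence. The study found its difference mainly in Marco-positive myeloid cells, while the rule kept out cells rich in Kupffer genes. Of 2 interferon response genes tested, 1 passed: Ifi27, at 20.1 and 18.6 in DA and at 7.78 and 4.85 in LEW (-1.72, SE 0.28, edgeR adjusted p = 0.000483). In all other kept cells Ifi27 was at 19.2 and 17.6 in DA and at 18.1 and 15.2 in LEW. Of 14 hepatocyte genes 1 passed (Apoc1, lower in LEW), with a median log2 difference of -0.30 beside -0.02 over all genes.

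**Figure D4:**
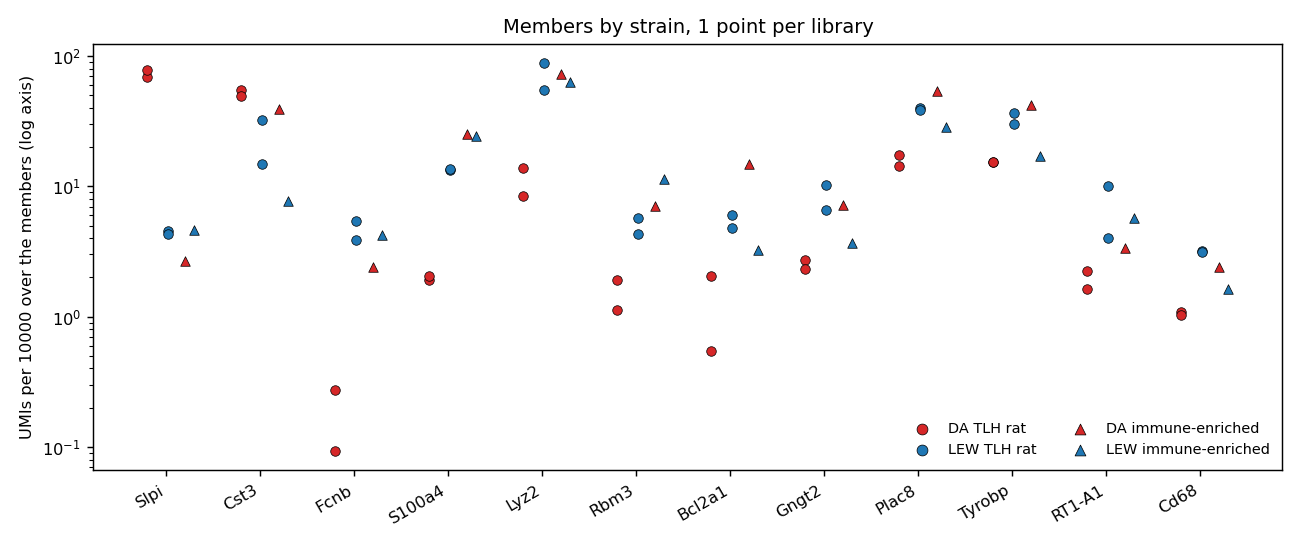
Each point is the level of a gene, in UMIs per 10000 over the members of 1 library on a log axis, in DA (red) and LEW (blue), for TLH rats (circles) and immune-enriched livers (triangles). In TLH the strains lie apart for all 12 genes, of which 10 were chosen by a rule that asked for this, as they do for 56.7% of all genes tested, and in the immune-enriched livers DA is the higher strain for Cst3, as in TLH, and for Bcl2a1, Plac8, Tyrobp, Gngt2, Lyz2, S100a4 and Cd68.

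The immune-enriched livers, 1 of each strain, did not repeat every direction. Fcnb was at 2.42 UMIs per 10000 in DA (10 UMIs, exact 95% Poisson interval 1.16 to 4.45) and at 4.201 in LEW (31 UMIs, 2.85 to 5.96), and Cst3 at 39.2 (33.4 to 45.7) and 7.72 (5.85 to 10.0), both in the direction seen in TLH. Of the 12 genes outside the rule that were compared in this pair and had passed between strains in TLH, 5 ran the other way: Plac8, Tyrobp, Bcl2a1 and Aif1, whose intervals did not overlap, and Gngt2, whose intervals did. The 3 gate genes Lyz2, S100a4 and Slpi, a description only, also ran the other way, with intervals that overlapped. As sums over the members, Slpi was low in both, at 2.66 and 4.61, and Lyz2 high in both, at 72.8 and 62.9. The sums of Lyz2 rested on few cells: 1 cell held 213 of 301 UMIs in DA and 1 cell 316 of 464 in LEW. Median UMIs of Lyz2 per member were 2.5 and 4. Of the 34 Slpi UMIs in LEW, 31 came from 1 cell. A single LEW cell carried 30327 UMIs, 41.1% of that library's member UMIs, with 23 UMIs of Cd3e, 24 of the proliferation gene Mki67, 80 of S100a4 and none of Lyz2. All 78 T cell list UMIs of the library came from it, and without it the T cell list fell from 10.6 to 0 UMIs per 10000 and the cycling list from 27.9 to 0.23. Without it RT1-Db1 in the LEW liver stood at 44.2 in place of 30.6, beside 70.1 in DA. The DA level was 89.3 without the deepest DA cell, which was not the cell with 177 of the 290 UMIs of RT1-Db1. The count of 5 among the 12 genes also depended on such cells. Without the deepest LEW cell, the log2 of LEW over DA for S100a6 turned from 0.21 to -0.11. Without the deepest cell of both livers, Irf8 turned from 3.14 in DA and 0.95 in LEW to 0.38 and 1.61.

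Members were next compared with Lyz2 cells, which held at least 3 UMIs of Lyz2 itself and under 10 UMIs of Cd74 and met the same limits on dendritic and Kupffer genes, to see what goes along with high Cd74. Cells with Slpi or S100a4 alone could enter the members but not this class, and 44 of 73 TLH members had at least 3 UMIs of Lyz2. Enough of both cell classes were present in 2 libraries, the LEW TLH rats, with 13 and 12 members against 26 and 13 cells. Since the gates were read on the same cells, genes that follow Cd74 had to differ. Of 575 genes outside both gates, 99 passed (17.2%), 50 higher in members (8.7%) and 49 lower (8.52%), and with RLE size factors 61 were higher and 39 lower. RT1-Bb was at 35.9 and 45.1 UMIs per 10000 in members and at 0 and 0.60 in the other class (2 UMIs; ratio 198, 95% counting interval 54.3 to 1641), RT1-Ba at 34.1 and 32.8 against 0.61 and 1.20, and RT1-Da at 55.6 and 58.0 against 0.76 and 4.21. Their log2 differences were 7.40 (SE 0.40), 5.32 (0.33) and 4.82 (0.26). RT1-Db1 was at 55.1 and 48.0 against 0 and 3.30, but its test did not pass (5.48, SE 1.23, adjusted p = 0.258).

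Beyond the MHC class II chains the called differences were smaller. Ifi30 was at 7.32 and 12.3 against 0.76 and 3.004 UMIs per 10000 (2.53, SE 0.36, edgeR adjusted p = 3.07e-10), the actin-binding Tagln2 at 8.69 and 2.86 against 1.52 and 0.30 (2.57, SE 0.41), and Tmsb10 at 56.5 and 51.4 against 10.5 and 18.0 (2.01, SE 0.16). Rpl3, Actb, Tmem176a and Gm2a, of which Gm2a encodes the lysosomal ganglioside activator, were higher by 1.27, 1.18, 1.16 and 1.13. Of 9 alternative settings, Rpl3, Ifi30 and Tagln2 missed the threshold in 1 each, Actb in 4, and Tmem176a and Gm2a in 5 each, and DESeq2 called 5 genes in place of 99. Lst1, a leukocyte transcript encoded in the MHC region, fell by 1.49 (SE 0.44, adjusted p = 0.00804), from 4.57 and 4.21 to 2.06 and 0.86. Most of the other lower genes named by the rule were hepatocyte genes, such as Pon1, Aldh2, Plg and Fgb. These missed the threshold in 4, 2, 6 and 1 of the 9 settings (Lst1 in 2). Of the hepatocyte list, 9 of 14 genes were lower in members, beside 8.52% of all genes tested. The hepatocyte share was 705 and 723 per 10000 in members against 948 and 950. The part of this share in the comparison was not tested. Of 12 secretory and cytoskeletal genes of monocytes 1 was higher (Crip1) and 2 were lower (S100a6 and Coro1a), beside 8.7% and 8.52% of all genes tested. Plac8 did not pass, at 40.03 and 38.5 in members and 38.6 and 41.8 in the other class (-0.02, SE 0.13, adjusted p = 0.946).

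Granulocyte transcripts separated these classes in 3 of the 4 libraries outside the test. S100a8 and S100a9, the subunits of calprotectin, were at 36.4 and 55.0 UMIs per 10000 in the Lyz2 cells low in Cd74 of DA TLH 2, at 83.2 and 167 in those of the immune-enriched DA liver and at 19.3 and 30.6 in the LEW one. In members S100a8 had 0.14 in the immune-enriched LEW liver and 0 in the other 5 libraries, and S100a9 had no UMI in any. In DA TLH 1 both genes were at 0 in both classes, with 4 cells of the class low in Cd74.

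Compared with the Kupffer class, cells with at least 1% of their UMIs from the 6 Kupffer genes, members differed widely. The gates set these classes apart by the Kupffer genes. On the side of the members alone they also used Cd74, the sum of Lyz2, S100a4 and Slpi, and the dendritic cell genes. Genes that move with any of these had to differ. The counts of MHC class II, Kupffer, macrophage and monocyte genes below, and genes that go with Lyz2 or S100a4, are therefore a description. All 4 TLH libraries entered this comparison, with 73 members and 1223 Kupffer class cells. Of 3989 genes, 427 passed (10.7%), 173 higher in members (4.34%) and 254 lower (6.37%), and 282 passed without DA rat 2. The genes with the highest fitted differences included Ccl17, a chemokine for T cells, with 20 UMIs in members against 1 in the Kupffer class (ratio 366, 95% counting interval 58.5 to 15170), Cst7, an inhibitor of lysosomal proteases (18 against 2; 165, 39.4 to 1464), and Fcnb. S100a11 was at 12.8, 6.54, 8.01 and 5.42 UMIs per 10000 in members and at 0.11 to 0.20 in the Kupffer class (log2 difference 5.62, SE 0.26). Lsp1, a leukocyte actin-binding protein, was at 2.72, 2.71, 6.41 and 2.57 against 0.05 to 0.14 (5.17, SE 0.37), S100a6 differed by 4.34 (SE 0.33), the fungal pattern receptor Clec7a by 4.97 (SE 0.93) and RT1-DOa by 4.53 (SE 0.86).

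By list, 6 of 7 tested MHC class II genes outside the rule were higher in members, with a median log2 difference of 3.72 beside -0.09 over all genes: RT1-Da, RT1-Ba, RT1-Bb, RT1-DOa, RT1-DOb and Ciita. RT1-DOb was at 0.54 and 1.21 in the DA rats and at 0 in both LEW rats, so its difference rests on the DA members. RT1-Da was at 30.7, 41.1, 55.6 and 58.0 against 3.92, 3.52, 2.79 and 7.02 UMIs per 10000 (3.50, SE 0.13), and RT1-Db1 missed the threshold (3.26, SE 0.47, adjusted p = 0.0512, edgeR). Of 16 secretory and cytoskeletal genes of monocytes, 11 were higher and 2 lower (Lgals3 and Ifitm3). Of 3 classical monocyte genes tested, 2 were higher (Fn1 and Ccr1). Over all genes tested, 4.34% were higher and 6.37% lower. Plac8 was at 17.4, 14.4, 40.03 and 38.5 against 5.22, 3.20, 8.92 and 6.96 (2.18, SE 0.13). In TLH no value of the members overlapped the Kupffer class for RT1-Da, which moves with the Cd74 of the gate, or for Plac8. The share of all genes for which this held was not counted.

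Lower in members were 9 of 11 general macrophage genes, 8 of 14 antigen processing genes and all 5 Kupffer genes outside the rule, beside 6.37% of all genes tested. Csf1r was at 0.54, 1.12, 1.37 and 2.57 against 8.48, 8.54, 8.54 and 7.38 UMIs per 10000 (log2 difference -2.61, SE 0.24), and Cd68 at 1.09, 1.03, 3.20 and 3.14 against 4.74, 6.08, 8.77 and 10.3 (-1.92, SE 0.22). The scavenger receptor Marco was at 0.27, 0.47, 0 and 0.29 against 14.6, 14.7, 30.1 and 30.5 (-5.97, SE 0.27). The processing genes that were lower were Ctss, Ctsh, Ctsb, Ctsd, Ctsl, Ctsz and Lgmn, all lysosomal proteases, and B2m. Each of the 10 lower genes named by the rule had no UMI in TLH members, and against a floor of 3 counts over the members Siglec1, the sialoadhesin of resident macrophages, was at least 12.6-fold lower, Hpgds, the prostaglandin D synthase, at least 12.9-fold, and Thbd, thrombomodulin, at least 10.0-fold.

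Members were last compared with the dendritic class. This was possible in 3 TLH libraries, DA 1, DA 2 and LEW 2, with 15, 33 and 12 members against 16, 44 and 12 cells. Of 619 genes tested, 1 passed (0.162%), lower in members. This was Tmsb10, at 119, 59.9 and 51.4 UMIs per 10000 in members and at 158, 163 and 98.1 in the dendritic class (log2 difference -0.96, SE 0.15, adjusted p = 0.00171, edgeR), lower in 3 of 3 libraries. At an unadjusted p of 0.05, 64 genes passed, and DESeq2 also called 1 gene. Without DA rat 1 the count was 11, without LEW rat 2 it was 6, and without DA rat 2 Tmsb10 did not pass (-0.72, adjusted p = 0.0908). RT1-Da was at 30.7, 41.1 and 58.0 against 35.5, 47.3 and 85.0 (-0.35, SE 0.12, adjusted p = 0.388), RT1-Db1 at 30.7, 43.9 and 48.0 against 36.0, 54.0 and 117 (-0.63, SE 0.18, adjusted p = 0.230), lower in members in every library without passing. Fcer1g was at 5.98, 7.10 and 16.6 against 5.01, 3.85 and 8.13 (0.79, SE 0.20, adjusted p = 0.118), and Plac8 at 17.4, 14.4 and 38.5 against 10.7, 10.7 and 9.61 (0.93, SE 0.23, adjusted p = 0.141).

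Few calls in this comparison do not show that the classes are alike. On simulated sums per library and class, 3% of genes changed by a log2 difference of 1 were recovered, 54% of those changed by 2 and 65.5% of those changed by 3. The spread of these sums was fixed and not estimated from the data, and libraries did not differ in gene shares. The rates hold for that setting only. When the members led by Slpi were left out and all 6 libraries were used, a choice made after seeing the data, 23 genes passed, 20 lower and 3 higher in members. All 4 TLH libraries gave 17 calls.

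Clustering of the 86 members over 3081 genes, after centring by library, gave 5 groups of 16, 26, 12, 10 and 22 cells, which are described by their leading genes and not named. In the group of 26 cells, from all 6 libraries, Lyz2 stood at 130 UMIs per 10000, Plac8 at 61.0, S100a4 at 28.2 and Fcer1g at 19.8, with Fcnb, Mal and S100a6 at the head of its genes. In the group of 22 cells, of which 14 came from DA TLH 2 and 16 were led by Slpi, Slpi stood at 100 and Cst3 at 76.4, and hepatocyte genes such as Ambp and Ca3 were among its leading genes. The group of 10 cells had Tmsb10 at 151, Irf8 at 4.35 and Slpi at 40.2, led by the chromatin and cytoskeletal genes Hmgb2, Lgals1 and Vim, and held a median of 5027 UMIs per cell. The LEW cell with Cd3e and Mki67 belonged to it and gave 35.7% of its 84985 UMIs, with 184 of the 203 UMIs of Hmgb2. Without that cell Hmgb2 fell from 23.9 to 3.48 UMIs per 10000, Tmsb10 stood at 194, Irf8 at 6.77 and Slpi at 62.6, and 6 of the 15 leading genes stayed, among them Lgals1 and Vim. In the group of 16 cells, led by Fcrla, a gene of the B cell list, RT1-Db1 stood at 70.6 and Cst3 at 44.5. The group of 12 cells was led by Nfkbia, Il1b and Tm4sf4, with Ccl17 among its next genes, and 8 of its cells came from DA TLH 2. RT1-Db1 was at 29.9 or more in every group. These levels are pooled over libraries that gave different numbers of cells to each group, so they do not rank the groups. The genes of the rule, mitochondrial genes and the hepatocyte list were left out of the clustering. The groups were found on the other genes by which they are described, so no test was made.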

How the data were processed

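Single-cell RNA sequencing was made by the authors on 4 total liver homogenate libraries and 2 immune-enriched libraries. They aligned the reads with Cell Ranger (3.1.0 in the submitters' processing notes) to a custom rat reference and deposited raw counts of UMIs per gene and barcode, without normalization, for barcodes that Cell Ranger called as cells (stated for TLH) and before the study's further filters on cells. The count files carry no gene names, so these were taken by row from the gene list deposited with the nuclei, which has the same 32883 rows, and 160 symbols shared by several rows were summed.

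Barcodes were kept at 2000 UMIs or more and at most 40% mitochondrial UMIs in TLH, and at 1000 and 50% in the immune-enriched libraries, which left 2351 to 10167 and 1163 and 2677 cells. The members and all gene lists were chosen with earlier results of these data known. Doublets were scored with Scrublet in scanpy 1.11.5 at an expected rate of 0.06, which called 36 of 25659 cells and no member, too few to have worked as a filter; 3 members were among the 6% of cells with the highest score. Cells with the same counts in more than 1 library numbered 0, while barcodes themselves were not among the files used here.

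UMIs were summed over the cells of a class in each rat, since cells of 1 liver are not replicates. Sums were scaled by TMM and filtered on expression by filterByExpr, both in edgeR 4.0.16 (R 4.3.3), and fitted with robust quasi-likelihood dispersions. p-values were adjusted over all genes tested by the Benjamini-Hochberg method, with a threshold of 0.05. Comparisons of classes took libraries with at least 10 cells of both classes, had the library as a block and left the genes of the gates out of the test. Hepatocyte-rich cells, with at least 5% of UMIs from Alb, Apoa1, Apoc1, Fabp1 and Ttr, served as background. Intervals on shares are exact binomial and those on levels exact Poisson, at 95%, and cover counting error only. Shares of cells with a UMI were taken after thinning to 1000 UMIs, and the fold against 0 counts used a floor of 3 counts over the group.

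The genes reported by the rule had an adjusted p under 0.05. For strains they were up to 10 a direction by log2 difference, with no overlap of the rats and a level 2 times that of other cells in each TLH library. To these were added, whether or not they passed, tested genes of the list taken from those the study names. For classes they were up to 10 a direction that moved the same way in every library. Members of the fixed gene lists were also reported. Simulated counts were drawn as sums per library, or per library and class, with 200 genes changed. Their spread was fixed and not estimated from the data, and changed genes removed by the filter counted as not recovered. The strain fit recovered 2.5%, 42% and 69.5% of log2 changes of 1, 2 and 3, the fit against the Lyz2 cells low in Cd74 0%, 48.5% and 77.5%, and that against the Kupffer class 0.5%, 34.5% and 67%.

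Alternatives were RLE size factors, DESeq2 1.42.0, no filter on low counts, stricter limits, members with lymphocyte genes left out, the replicate number or no block, each library left out and other sets of libraries. Added after seeing the data were members not led by Slpi, all 6 libraries without the cell minimum, the crossed numbers and the deepest member left out. Some genes are not reported here.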

Additional observations from a re-analysis of the deposited data

Results flagged for a closer look

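Of 12 genes outside the rule that passed between strains in TLH members and were read in the single pair of immune-enriched livers, 5 ran the other way there, and this difference between preparations was not tested. Values are log2 of LEW over DA, first in TLH and then in the immune-enriched pair, followed by UMIs per 10000 in the DA and the LEW immune-enriched members. Plac8 went from 1.19 to -0.90 (53.7 and 28.7), Tyrobp from 0.97 to -1.30 (42.1 and 17.1), Bcl2a1 from 1.62 to -2.15 (14.8 and 3.25) and Aif1 from 1.30 to -1.69 (6.77 and 2.03). For these 4 genes the counting intervals of the immune-enriched livers did not overlap. Gngt2 went from 1.62 to -0.97 (7.26 and 3.66), with intervals that overlapped. The 3 gate genes, whose values chose the cells and which are given as a description, also changed direction: Slpi from -4.18 to 0.77 (2.66 and 4.61), Lyz2 from 2.48 to -0.21 (72.8 and 62.9) and S100a4 from 2.60 to -0.052 (25.2 and 24.3), with intervals that overlapped.

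Without the deepest LEW cell alone the immune-enriched values were -0.15 for Plac8, -0.54 for Tyrobp, -1.59 for Bcl2a1, -0.95 for Aif1, -0.22 for Gngt2, 1.52 for Slpi and -0.14 for S100a4, and Lyz2 turned to 0.55. Without the deepest cell of both libraries they were -0.49, -0.80, -1.93, -1.55, -0.87, 0.89 and -0.71 in that order, and -0.10 for Lyz2. The count of 5 among the 12 genes also depended on these cells. S100a6, 1 of the 12, turned from 0.21 to -0.11 when the deepest LEW cell was left out. With the deepest cell of both left out, S100a6 was at 26.2 UMIs per 10000 in DA and 15.4 in LEW. Irf8, another of the 12, then turned from 3.14 in DA and 0.95 in LEW to 0.38 and 1.61. The preparations also differed in chemistry and depth and, by the deposited names, in age.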

How the results depend on the processing

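The count of genes that passed depended on the processing. Between strains, 37 genes became 56 with RLE size factors, 13 with DESeq2, 16 with at least 20 UMIs of Cd74, 12 without members that held 2 or more B, T or NK marker UMIs, 14 without Slpi-led members, and 0 with all 6 libraries and a term for preparation (61 at an unadjusted p under 0.05). Leaving out each rat gave 23 to 95 genes, 95 without DA rat 1 and 23 without LEW rat 2. Deviations of same-numbered rats from their strain means had a correlation of -0.124 over 556 genes (1 value, the same for both numbers by construction). With 2 rats a strain, this value cannot decide whether the replicate numbers pair the rats. The fit with the replicate block called 38. A crossed pairing, added after seeing the data, called 56. Against the Lyz2 cells low in Cd74, 99 genes became 5 with DESeq2 and 48 with no filter on low counts, and leaving out a library could not be fitted with a test, because 1 library of each class was left. Against the Kupffer class, 427 genes became 261 with DESeq2 and 817 with all 6 libraries, and 282 to 380 with each library left out, 282 without DA rat 2. Against the dendritic class, 1 gene became 3 with RLE size factors, 9 with no filter, 4 with at most 20% mitochondrial UMIs, 17 with 4 TLH libraries, 10 with all 6 libraries and 23 without Slpi-led members over all 6 libraries. Leaving out each library gave 1 to 11, 11 without DA rat 1, 6 without LEW rat 2, and without DA rat 2 Tmsb10 did not pass (-0.72, adjusted p = 0.0908).

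Cst3 reversed to 0.43 without Slpi-led members, the only one of the genes reported by the rule to change direction under the alternatives run. In the strain comparison 52 further values kept their direction and lost the call, in that against the Lyz2 cells low in Cd74 59, against the Kupffer class 2 and against the dendritic class 1. RT1-Ba, RT1-Bb, RT1-Da and Tmsb10 passed against the Lyz2 cells low in Cd74 under all 9 alternatives. The difference in member share, 0.206 percentage points, stayed positive at 0.0949 to 0.246 under 5 alternatives, but at 3000 UMIs or more DA rat 2 (0.660%) lay below LEW rat 1 (0.777%). Without the deepest LEW immune-enriched member the T cell list moved from 10.6 to 0 and the cycling list from 27.9 to 0.23 UMIs per 10000. The 4-library alternative against the Kupffer class is the reported set. Apart from these last counts the causes were not tested. With 6 to 33 members a library, low genes had too few UMIs to be tested.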
